A study of Mus musculus with 12 samples.

Results

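Lipid-associated and disease-associated myeloid genes are described here across 4 flow-sorted populations of mouse GBM (glioblastoma), a malignant brain tumor. The 10 genes are Trem2, Tyrobp, Clec7a, Axl, Apoe, Lpl, Cst7, Gpnmb, Spp1 and Cd9. They were chosen by symbol as members of a Trem2-dependent myeloid program, and all 10 were measured among the 18180 genes of the deposited table. The data were 12 bulk RNAseq libraries, with EGFR+ cells of 3 tumors (T3, T4 and T5) each sorted as PDGFRA+, PDGFRA-, GAL1+ and GAL1- cells, so that each population had 3 libraries. GAL1 is galectin-1, the product of Lgals1, and PDGFRA is a receptor for platelet-derived growth factor. All tumors came from mice of a mixed background (C57Bl/6J, 129S4, FVBN/J and Balb/cJ) with the same alleles, among them a Cre-dependent human EGFR transgene, loss of Cdkn2a and a Cre-dependent luciferase reporter. A lentivirus carrying Cre, injected into the brain, started the tumors, and cells were taken at end stage from animals that kept their immune cells. The study's methods describe adult mice of both sexes, and the labels give no age for the animals of these tumors and do not say whether a tumor was 1 animal. Sorted cells are called CD45- in the study's Results, whereas its description of the sort names antibodies to EGFR with either PDGFR or Galectin-1. The PDGFRA pair and the GAL1 pair were separate splits of the EGFR+ cells of a tumor, so a cell can belong to 1 population of each split.

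TREM2 is a receptor on microglia and macrophages that binds lipids and lipoproteins, and it signals through the adaptor TYROBP (DAP12), which recruits the kinase SYK. In the diseased brain, microglia that take on the disease-associated state, in part through TREM2, lower their homeostatic genes and raise a set that includes Apoe, Lpl, Cst7, Clec7a, Axl, Spp1 and Cd9. Macrophages of adipose tissue, atherosclerotic plaque and tumors take on a closely related lipid-associated state in which Gpnmb, Spp1, Cd9 and Trem2 stand out. Several of these genes are not restricted to myeloid cells, since astrocytes make APOE, glial progenitors and tumor cells can make GPNMB and osteopontin, and CD9 is on many cell types.

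In the 250 bases before an annotated start, the members differed in base composition and in short motifs. Promoter sequences were taken from a RefSeq table of build GRCm38.p6, in which 8 of the 10 members had a window, with 12 windows in all. Tyrobp and Lpl had no entry. Trem2 (chr17:48346151-48346400, plus strand), Clec7a (chr6:129472780-129473029, minus strand) and Spp1 (chr5:104434861-104435110, plus strand) are shown as members that were far higher in GAL1+ than in GAL1- cells. Cd9 (chr6:125494761-125495010, minus strand) is shown as the member that was not. Each is written 5′ to 3′ on the strand of its gene, and capitals mark the matches to the searched motifs.
Trem2: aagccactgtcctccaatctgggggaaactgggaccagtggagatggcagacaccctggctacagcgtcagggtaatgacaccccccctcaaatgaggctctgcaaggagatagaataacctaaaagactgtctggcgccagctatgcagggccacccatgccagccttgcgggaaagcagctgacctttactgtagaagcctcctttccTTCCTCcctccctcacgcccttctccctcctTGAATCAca
Clec7a: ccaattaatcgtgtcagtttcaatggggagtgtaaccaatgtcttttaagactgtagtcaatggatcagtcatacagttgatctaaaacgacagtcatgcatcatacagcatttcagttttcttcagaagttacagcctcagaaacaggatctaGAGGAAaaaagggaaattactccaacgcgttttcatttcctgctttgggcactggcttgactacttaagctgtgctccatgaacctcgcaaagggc
Spp1: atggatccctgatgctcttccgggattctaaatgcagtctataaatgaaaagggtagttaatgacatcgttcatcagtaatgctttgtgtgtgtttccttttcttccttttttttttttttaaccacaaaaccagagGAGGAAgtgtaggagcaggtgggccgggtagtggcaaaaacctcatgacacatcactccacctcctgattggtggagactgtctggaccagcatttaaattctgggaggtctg
Cd9: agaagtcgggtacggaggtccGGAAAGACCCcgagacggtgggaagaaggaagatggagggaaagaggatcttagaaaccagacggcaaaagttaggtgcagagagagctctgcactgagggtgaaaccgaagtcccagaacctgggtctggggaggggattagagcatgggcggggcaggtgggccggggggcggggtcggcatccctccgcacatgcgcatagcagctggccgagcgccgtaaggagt
The PU.1 core, searched as GAGGAA or its reverse complement TTCCTC, is bound by the myeloid factor PU.1. It was found in windows of Trem2 (40 bases before the start), Clec7a (96 bases before), Spp1 (113 bases before), Axl and Apoe, and in none of Cd9, Cst7 and Gpnmb. Another window of Spp1 (chr5:104435942-104436191) and another of Apoe (chr7:19698622-19698871) held no PU.1 core. Of all 32851 windows of this length, 23.3% held it, so that its presence is common. This share is per window, and a member with more than 1 window had more chances of a match. The AP-1 motif TGANTCA was found in Trem2 alone, 9 bases before the start, against 6.75% of all windows. An NF-kB motif, searched on both strands, was found in Cd9 alone, 229 bases before the start, against 1.41% of all windows. The E-box CACGTG of the MITF and TFE factors was in no member window and in 6.02% of all windows. The Cd9 window held 16 CpG dinucleotides and was 61.6% G and C, against 4 CpG in Trem2, 3 in Spp1 and 5 in Clec7a, and the median window of a measured gene held 14. These matches describe letters in these windows and were not set against binding data.

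Recovered reads ran from 9851175 to 24117541 per library, and the GAL1- libraries were the deepest, with 21728280 to 24117541. Levels are the authors' log2 CPM (base-2 logarithm of CPM, normalized read counts scaled to library size), and the level of 3 reads, taken as the floor of detection, lay between -2.99 and -1.44. Differences between populations are log2 fold changes from limma with the tumor as a block, and a gene is called where its p, adjusted over all 18180 genes, is under 0.05. Pdgfra was at 9.95 to 10.81 log2 CPM in PDGFRA+ and 7.36 to 10.11 in PDGFRA- libraries, and Lgals1 was at 7.41 to 7.95 in GAL1+ and 6.05 to 6.81 in GAL1- libraries. Egfr, counted on the mouse genome, was at 10.42 to 10.65 in GAL1- and 9.93 to 10.50 in PDGFRA+ libraries. It was at 8.16 to 10.18 in PDGFRA- and 7.68 to 9.02 in GAL1+ libraries, although all 4 populations were sorted as EGFR+. Ptprc, which encodes CD45, was at 3.70 to 5.18 in GAL1-, 6.11 to 7.33 in PDGFRA+, 6.65 to 8.66 in PDGFRA- and 8.21 to 9.0 in GAL1+ libraries. All 14 genes of a pan-leukocyte list were above 3 reads in every library, and their summed CPM was 104.9 to 281.7 in GAL1-, 744.9 to 1708 in PDGFRA+, 847.1 to 3565 in PDGFRA- and 3210 to 4451 in GAL1+ libraries. None of the 14 was at 0 in any library, and their part in the results below was not tested except by the subtraction described further on. The PDGFRA- library of T5 stood apart from the other PDGFRA- libraries, with a pan-leukocyte mean of 7.41 log2 CPM against 6.09 and 5.42, close to the 7.31 to 7.68 of GAL1+ libraries.

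**Figure D1:**
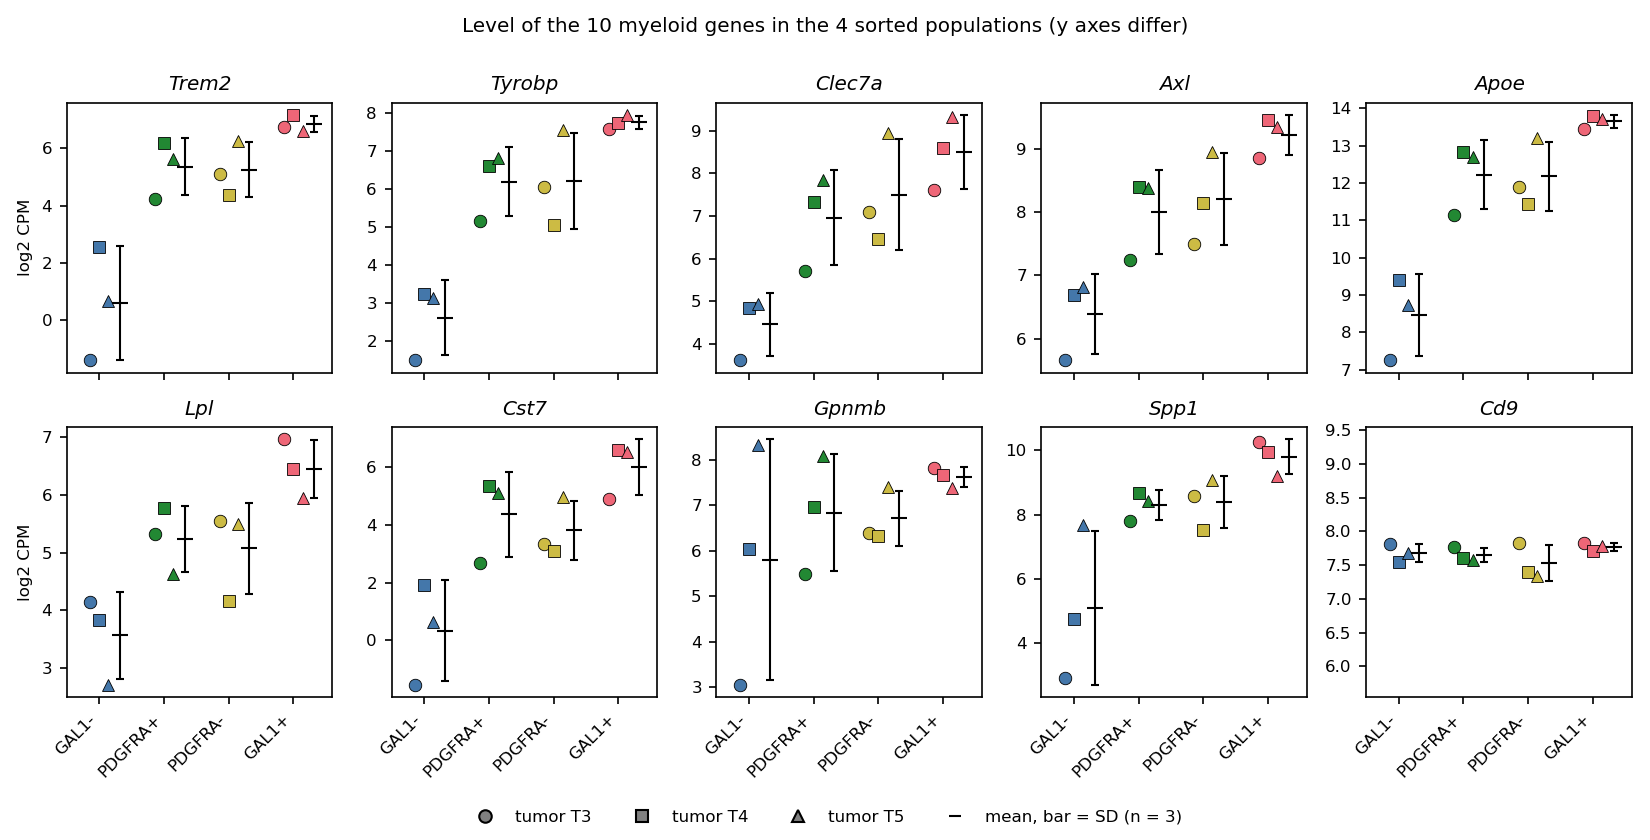
Level (log2 CPM) of the 10 genes in each library, by sorted population, with 1 marker shape per tumor and the mean and SD of 3 libraries beside them. Trem2, Tyrobp, Clec7a, Axl, Apoe, Lpl, Cst7 and Spp1 have all 3 GAL1+ libraries above all 3 GAL1- libraries, whereas Gpnmb in the GAL1- library of T5 (8.33) is above every GAL1+ library and Cd9 stays between 7.35 and 7.83 in all 12.

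The receptor Trem2 had the largest difference between the GAL1 populations among the 10 genes, and its adaptor Tyrobp was also far higher in GAL1+ cells. Trem2 was at -1.41, 2.56 and 0.68 log2 CPM in GAL1- cells of T3, T4 and T5 (10, 140 and 39 reads), and at 6.76, 7.16 and 6.61 in GAL1+ cells of the same tumors. In PDGFRA+ cells it was at 4.24, 6.19 and 5.63, and in PDGFRA- cells at 5.11, 4.37 and 6.27. The GAL1+ and GAL1- libraries were thus fully apart, the PDGFRA libraries of both signs lay between them, and the 2 PDGFRA populations overlapped. The Trem2 difference of GAL1+ over GAL1- cells was 6.23 (SE 0.73, 75.2-fold). In bulk RNA, fewer cells of a type and less RNA of the gene per cell cannot be told apart, and this holds for every difference given here. Tyrobp was at 1.49, 3.25 and 3.13 in GAL1- cells and at 7.59, 7.73 and 7.95 in GAL1+ cells of T3, T4 and T5, a difference of 5.13 (SE 0.50, 35.1-fold). Its PDGFRA+ libraries were at 5.16, 6.62 and 6.81 and its PDGFRA- libraries at 6.05, 5.06 and 7.56. As for Trem2, no PDGFRA library reached a GAL1+ library, though the PDGFRA- library of T5 came within 0.39 of the GAL1+ library of that tumor.

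The other surface receptors, Clec7a and Axl, followed the same order with smaller steps. Clec7a encodes dectin-1, a lectin receptor for fungal glucans, and AXL is a receptor tyrosine kinase for GAS6 that takes part in the clearance of dying cells. Clec7a was at 3.61, 4.83 and 4.93 log2 CPM in GAL1-, 5.71, 7.32 and 7.85 in PDGFRA+ and 7.10, 6.45 and 8.95 in PDGFRA- cells, whereas GAL1+ cells were at 7.60, 8.59 and 9.33 (T3, T4 and T5 in this order). In each population T5 had the highest Clec7a, and the PDGFRA- library of T5 was above the GAL1+ libraries of T3 and T4. GAL1+ exceeded GAL1- cells by 4.05 (SE 0.40, 16.6-fold). Axl was at 5.65, 6.69 and 6.82 in GAL1-, 7.24, 8.40 and 8.39 in PDGFRA+ and 7.50, 8.15 and 8.96 in PDGFRA- cells, whereas GAL1+ cells were at 8.86, 9.46 and 9.35. Its difference of GAL1+ over GAL1- cells was 2.83, which had the smallest SE among the called members (0.19, 7.12-fold).

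The lipid genes, Apoe and Lpl, also separated the GAL1 populations. APOE carries cholesterol and phospholipid between cells, and lipoprotein lipase, the product of Lpl, releases fatty acids from lipoprotein triglycerides. Apoe was at 7.25, 9.41 and 8.72 log2 CPM in GAL1-, 11.15, 12.82 and 12.69 in PDGFRA+ and 11.90, 11.44 and 13.21 in PDGFRA- cells, whereas GAL1+ cells were at 13.45, 13.78 and 13.70 (T3, T4 and T5 in this order). The 3 GAL1+ libraries lay within an SD of 0.17, and no library of another population reached them. The difference of GAL1+ over GAL1- cells was 5.18 (SE 0.47, 36.4-fold). Lpl was at 4.15, 3.83 and 2.72 in GAL1-, 5.32, 5.77 and 4.64 in PDGFRA+ and 5.55, 4.17 and 5.50 in PDGFRA- cells, whereas GAL1+ cells were at 6.96, 6.44 and 5.95. In both GAL1 populations T3 had the highest and T5 the lowest Lpl, and the difference between them was 2.88 (SE 0.41, 7.37-fold).

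Cst7, which encodes cystatin F, an inhibitor of lysosomal cysteine proteases in immune cells, behaved like Trem2. It was at -1.55, 1.90 and 0.64 log2 CPM in GAL1- cells of T3, T4 and T5 (9, 89 and 38 reads) and at 4.91, 6.60 and 6.54 in GAL1+ cells. The PDGFRA+ libraries were at 2.67, 5.34 and 5.10 and the PDGFRA- libraries at 3.35, 3.10 and 4.99, with the PDGFRA+ libraries of T4 and T5 and the PDGFRA- library of T5 above the GAL1+ library of T3. GAL1+ exceeded GAL1- cells by 5.69 (SE 0.57, 51.5-fold). With 10 and 9 reads, the Trem2 and Cst7 levels in the GAL1- library of T3 rest on few reads, and their differences in that tumor (8.16 and 6.46) were the widest of the 3 tumors.

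Gpnmb and Spp1 departed from this pattern in tumor T5. GPNMB is a transmembrane glycoprotein of lysosome-rich macrophages and melanocytes, and Spp1 encodes osteopontin, a secreted ligand of integrins and CD44. Gpnmb was at 3.05, 6.04 and 8.33 log2 CPM in GAL1- cells of T3, T4 and T5, which are 230.5, 1572 and 7944 reads with fractional counts included. In GAL1+ cells it was at 7.82, 7.67 and 7.38, in PDGFRA+ cells at 5.49, 6.95 and 8.08, and in PDGFRA- cells at 6.40, 6.32 and 7.41. In T5 the GAL1- and PDGFRA+ libraries were therefore above the GAL1+ library, with the PDGFRA- library level with it, and in T3 and T4 all 3 were below it. The Gpnmb difference of GAL1+ over GAL1- cells was 1.82 (SE 0.81, 95% interval -0.004 to 3.64), with an adjusted p of 0.0802. Without the T5 libraries it was 3.20 (adjusted p = 0.0146), without the GAL1- library of T5 alone 2.80 (adjusted p = 0.0137), and without the T3 libraries 0.34 (adjusted p = 0.636).

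Spp1 was at 2.90, 4.73 and 7.66 log2 CPM in GAL1- cells (208, 636 and 5014 reads) and at 10.25, 9.96 and 9.20 in GAL1+ cells of T3, T4 and T5. It was at 7.80, 8.68 and 8.41 in PDGFRA+ and at 8.58, 7.51 and 9.09 in PDGFRA- cells. The GAL1- library of T5 was again the highest of its population and exceeded the PDGFRA- library of T4. The Spp1 difference of GAL1+ over GAL1- cells was 4.70 (SE 0.87, 26.0-fold, adjusted p = 0.00135), and by tumor it was 7.35, 5.23 and 1.54. In the GAL1- library of T5, Gpnmb exceeded the higher of the other GAL1- libraries by 2.29 and Spp1 by 2.93. Of all 18180 genes, 0.435% exceeded by more than Gpnmb and 0.22% by more than Spp1. In that library the pan-leukocyte mean was 3.44, between the 2.37 and 3.83 of the other GAL1- libraries. Trem2, Apoe and Cst7 there lay between their values in T3 and T4, Tyrobp was within 0.12 of its T4 value, and Lpl was the lowest of the 12 libraries. Clec7a and Axl were also highest of the GAL1- libraries there, but by only 0.09 and 0.13, which 23.0% and 20.4% of all genes exceeded.

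Cd9, a tetraspanin of the plasma membrane and of extracellular vesicles, did not pass the test in any comparison of levels. It was at 7.81, 7.55 and 7.67 log2 CPM in GAL1-, 7.77, 7.60 and 7.57 in PDGFRA+ and 7.83, 7.40 and 7.35 in PDGFRA- cells, whereas GAL1+ cells were at 7.82, 7.71 and 7.78 (T3, T4 and T5 in this order). The 4 populations overlapped throughout. The Cd9 difference of GAL1+ over GAL1- cells was 0.09 with a 95% interval of -0.15 to 0.33, and under quantile normalization its sign turned, to -0.18.

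Across the members, 8 of 10 were called higher in GAL1+ than in GAL1- cells and none lower, with adjusted p values by limma of 3.93e-05 for Axl to 0.00135 for Spp1. In this comparison 58.2% of all genes were called, 28.9% higher and 29.3% lower. The 8 members were also those whose 3 GAL1+ libraries lay above their 3 GAL1- libraries, and 60.6% of all genes had such non-overlapping groups in either direction. The median difference was 4.38 over the members and -0.03 over all genes. Markers of leukocytes moved the same way, with 14 of 14 pan-leukocyte genes higher (median 4.30), 11 of 11 macrophage and monocyte genes (5.67) and 11 of 11 homeostatic microglia genes (4.52). Endothelial genes (9 of 9, median 2.70) and pericyte genes (6 of 6, 2.74) were also higher, 3 of 6 neutrophil genes were, and 8 of 8 OPC and oligodendrocyte lineage genes were lower (-2.62). Of 8 T and NK cell genes 1 was higher and 1 lower, and of 7 astrocyte genes 3 were lower.

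**Figure D2:**
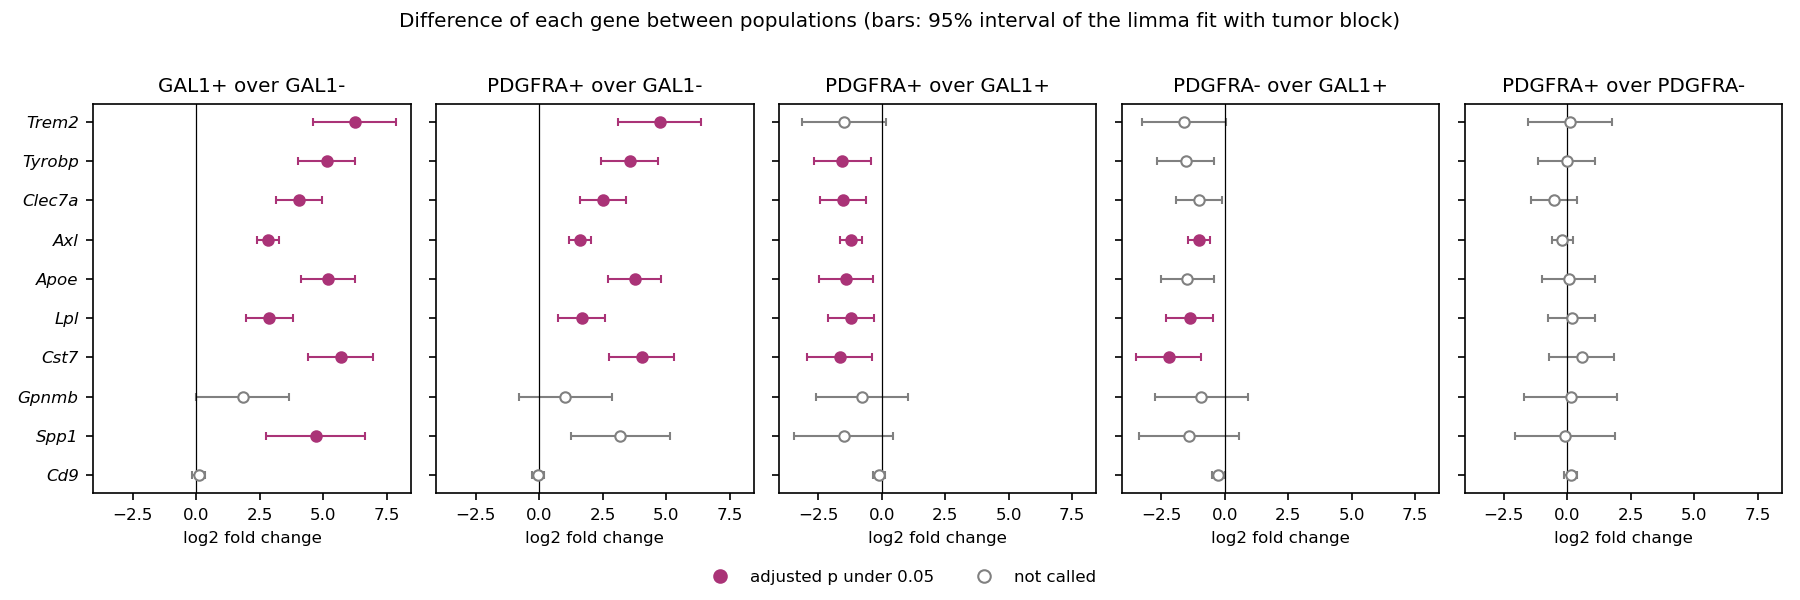
Log2 fold change of each gene in 5 comparisons of sorted populations, with the 95% interval of the limma fit, filled where the adjusted p is under 0.05. In GAL1+ over GAL1- cells 8 genes are called, with Trem2 farthest from 0 (6.23), in PDGFRA+ over PDGFRA- cells none is, and Cd9 sits near 0 with narrow intervals in all 5.

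PDGFRA+ and PDGFRA- cells were not separated by these genes. None of the 10 members was called by limma, against 0.0% of all genes, and none had an unadjusted p under 0.05, where 2137 of all genes did. Without the tumor block no gene was called either, and 640 had an unadjusted p under 0.05. The differences of PDGFRA+ over PDGFRA- cells ran from -0.54 for Clec7a (95% interval -1.45 to 0.37) to 0.55 for Cst7 (-0.73 to 1.84), with a median of 0.07. The intervals are wide, so that for Trem2 (0.10) values from -1.54 to 1.75 were not excluded. The direction differed by tumor, since all 10 members were lower in PDGFRA+ than in PDGFRA- cells in T3, all 10 were higher in T4, and 7 of 10 were lower in T5. The pan-leukocyte mean was likewise lower in PDGFRA+ cells in T3 (5.22 against 6.09) and T5 (6.28 against 7.41) and higher in T4 (6.41 against 5.42). For Trem2 these differences were -0.87, 1.83 and -0.64, and for Apoe they were -0.74, 1.39 and -0.51. No member had libraries of these populations fully apart, against 6.94% of all genes.

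PDGFRA+ cells were below GAL1+ cells, with 6 of 10 members called lower and none higher. In this comparison 38.0% of all genes were called, 20.9% higher and 17.0% lower. Axl was lower by the most certain margin, -1.21 (SE 0.19, adjusted p = 0.0021), followed by Clec7a at -1.55 (0.0162 adjusted), Tyrobp at -1.56 (0.0354), Apoe at -1.42 (0.0391), Lpl at -1.21 (0.0424) and Cst7 at -1.65 (0.0460). Trem2 (-1.49) and Spp1 (-1.51) had differences of the same size with wider intervals, -3.13 to 0.16 and -3.46 to 0.45, and were not called. Gpnmb was at -0.79 (-2.61 to 1.04) and Cd9 at -0.12 (-0.36 to 0.12, and 0.10 under quantile normalization). The 3 PDGFRA+ libraries were below the 3 GAL1+ libraries for Trem2, Tyrobp, Axl, Apoe, Lpl and Spp1, and 46.0% of all genes were non-overlapping here. Pan-leukocyte genes were lower in 13 of 14 cases, with a median of -1.53 beside the members' -1.45. For Apoe the call was lost in 6 of 12 alternatives, and under quantile normalization its difference was -0.54 (adjusted p = 0.340). The number of members called was 0 without T3, 1 without T5, 7 without T4 (with Trem2 at an adjusted p of 0.0286), 4 without the GAL1- library of T5 and 0 without the tumor block. Over all genes the calls moved as well, from 6900 to 2110, 4267, 4863, 6714 and 3154 in the same order.

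PDGFRA- cells were also below GAL1+ cells, with Lpl (-1.37), Axl (-1.01) and Cst7 (-2.20) called lower, 3 of 10 members, where 20.1% of all genes were called and 6.91% lower. The adjusted p values were 0.0432, 0.0117 and 0.0286. Tyrobp (-1.53, adjusted p = 0.0577) and Apoe (-1.46, adjusted p = 0.0546) lay just past the threshold. Trem2 (-1.59), Spp1 (-1.41), Clec7a (-1.01), Gpnmb (-0.92) and Cd9 (-0.24) had adjusted p values of 0.104 to 0.441. The PDGFRA- library of T5 lay nearest to its GAL1+ partner, with a mean over the 9 members other than Cd9 that was lower by 0.45, against 1.41 in T3 and 2.31 in T4. Without it 6 members were called, without T3 or T4 0, without T5 2, and without the tumor block 0. Over all genes, 3652 were called with all libraries, 5837 without that library, 788 without T3, 0 without T4 (3649 at an unadjusted p under 0.05 by limma), 3647 without T5 and 725 without the block. Libraries did not overlap for 5 members, against 18.7% of all genes.

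The remaining comparison, PDGFRA+ over GAL1- cells, set the receptor-positive arm of 1 split against the galectin-negative arm of the other. It shared the GAL1- libraries with the first comparison and its PDGFRA+ libraries with others, and no comparison given here is independent of the rest. Of the members, 7 of 10 were called higher and none lower, where 8.27% of all genes were called, 8.26% higher and 0.011% lower. Trem2 differed by 4.75 (SE 0.73), Cst7 by 4.04 (0.57), Apoe by 3.76 (0.47), Tyrobp by 3.57 (0.50), Clec7a by 2.50 (0.40), Lpl by 1.67 (0.41) and Axl by 1.62 (0.19), with adjusted p values of 0.0020 to 0.0336. Spp1 differed by 3.20 (adjusted p = 0.0547) and, without the GAL1- library of T5, by 4.44 (adjusted p = 0.0116). Gpnmb differed by 1.04 (95% interval -0.79 to 2.86) and Cd9 by -0.03 (-0.27 to 0.21). Of the members, 8 had non-overlapping libraries, against 24.6% of all genes, and PDGFRA- over GAL1- libraries did not overlap for 7 members, against 28.9%. All 14 pan-leukocyte genes were called higher here too, with a median of 2.78 beside the members' 2.85. Without T3 the count of members was 0, without T5 it was 4, and without the tumor block it was 4. Over all genes the count was 1504 with all libraries, 0 without T3 (2549 at an unadjusted p under 0.05 by limma), 717 without T5 and 612 without the block.

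Ordered by mean level, 9 members had GAL1- cells lowest and GAL1+ cells highest, with the PDGFRA populations between them and overlapping each other. The step from GAL1- up to PDGFRA+ cells was free of overlap for 8 of these members and the step up to PDGFRA- cells for 7, while the step on to GAL1+ cells was called for 6 members from PDGFRA+ and 3 from PDGFRA- cells. Cd9 had PDGFRA- cells lowest (7.53 ± 0.27, SD, n = 3) and GAL1+ cells highest (7.77 ± 0.06), and no neighbours in its order differed beyond their spread. For Gpnmb the means rose from 5.81 ± 2.65 in GAL1- to 6.71 ± 0.61 in PDGFRA- cells, then to 6.84 ± 1.30 in PDGFRA+ and 7.63 ± 0.22 in GAL1+ cells, and again no neighbours were apart.

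The levels of most members followed those of the leukocyte genes from library to library. Over the 12 libraries, Pearson's r with the pan-leukocyte mean was 0.995 for Tyrobp, 0.992 for Apoe, 0.975 for Trem2, 0.971 for Clec7a, 0.965 for Axl and 0.963 for Cst7. It was 0.895 for Spp1, 0.828 for Lpl, 0.621 for Gpnmb and -0.088 for Cd9. These are descriptions over libraries that share tumors and fall by population, and no test was made. Among the members themselves, the 28 pairs without Cd9 and Gpnmb had r of 0.672 to 0.994 (median 0.928), pairs of Gpnmb with these 0.215 to 0.806, and pairs with Cd9 -0.226 to 0.297.

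**Figure D3:**
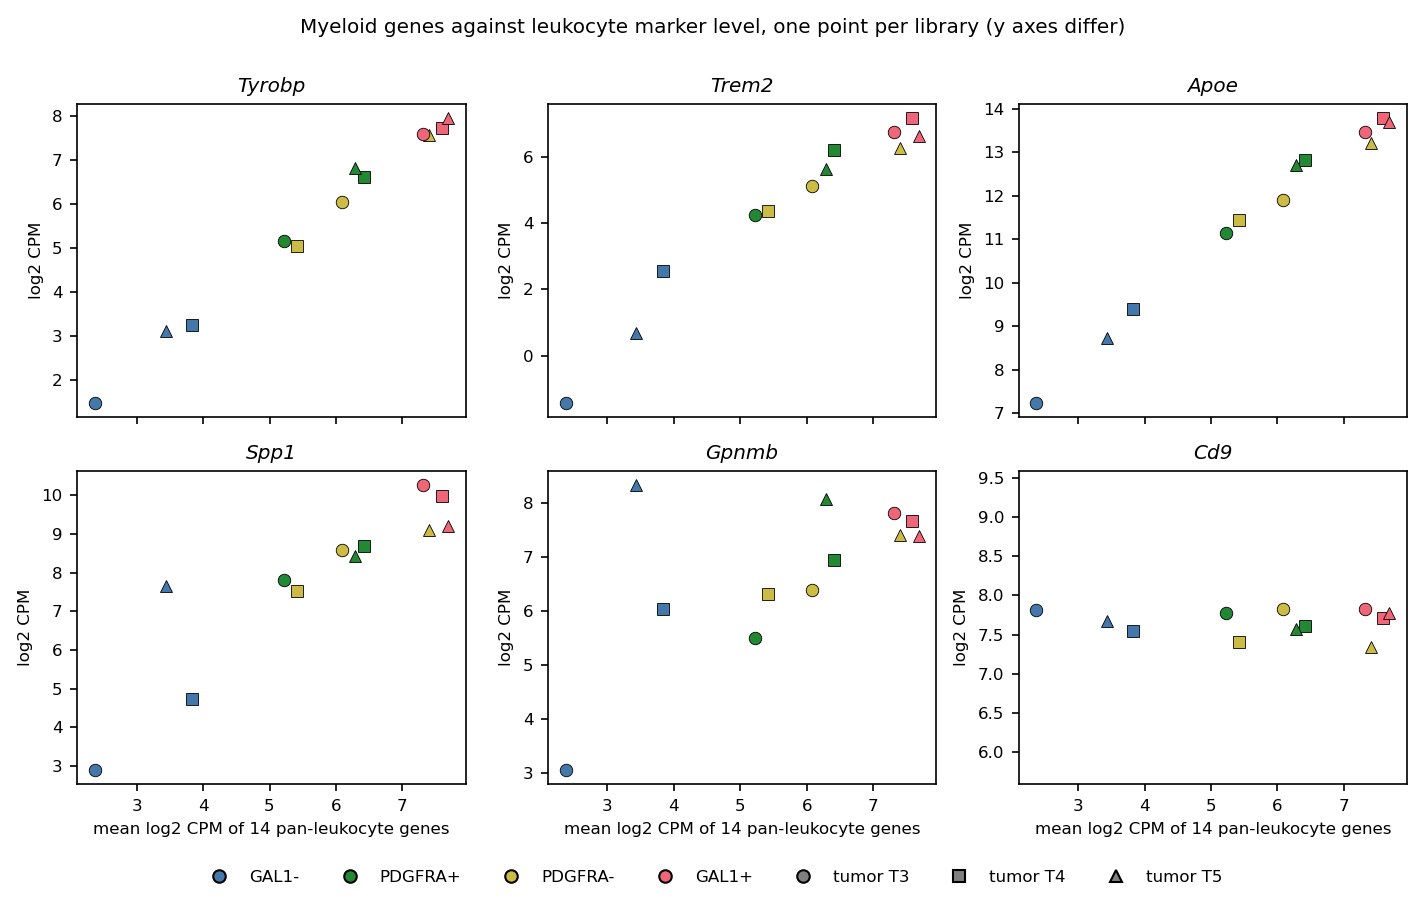
Level (log2 CPM) of 6 of the genes against the mean log2 CPM of 14 pan-leukocyte genes, with 1 point per library, colored by population and shaped by tumor. Tyrobp, Trem2 and Apoe rise along with the leukocyte mean, Spp1 and Gpnmb of the GAL1- library of T5 (7.66 and 8.33 at a leukocyte mean of 3.44) lie off the trend, and Cd9 is flat.

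Subtracting the pan-leukocyte mean of each library from every gene asked how far members moved beyond the leukocyte genes. The subtracted mean is shared by all genes, so its noise enters every test, standard errors were 0.47 to 0.60 for the members, and p values from 12 such means are too small. Relative to the leukocyte mean, Trem2 in GAL1+ cells exceeded that in GAL1- cells by 1.92 (limma, adjusted p = 0.00101), and by tumor by 3.22, 0.84 and 1.69. Cst7 was higher by 1.37 (adjusted p = 0.0144), and by tumor by 1.52, 0.93 and 1.66. The Cst7 call was lost in 5 of 11 alternatives, namely without T3, without T5 and without the GAL1- library of T5, on log2(CPM + 1), where it was 0.61 (adjusted p = 0.262), and with the macrophage and monocyte list, where it was 0.18 (adjusted p = 0.738). The Trem2 call was lost without T3 (1.26, adjusted p = 0.170) and when the macrophage and monocyte list was subtracted instead (0.72, adjusted p = 0.168). Tyrobp (0.82), Apoe (0.87), Spp1 (0.39) and Clec7a (-0.27) were not called, and Apoe and Tyrobp were above 0 in all 3 tumors but turned to -0.33 and -0.38 with the macrophage and monocyte list.

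The other 4 members were lower relative to leukocyte genes in GAL1+ cells. Lpl differed by -1.44 (tumors -2.14, -1.15 and -1.01), Axl by -1.48 (-1.74, -0.99 and -1.72), Gpnmb by -2.50 (-0.17, -2.13 and -5.19) and Cd9 by -4.22 (-4.93, -3.60 and -4.14), with adjusted p values of 2.45e-10 to 0.00959 by limma. By limma 6 of 10 members were thus called, 2 higher and 4 lower, where 95.3% of all genes were called, 0.556% higher and 94.7% lower. A fall on this scale is what nearly every gene shows, and a rise is rare. For Spp1 the tumors went apart, with 2.40 in T3, 1.47 in T4 and -2.71 in T5. Without the GAL1- library of T5, Spp1 was at 1.78 (adjusted p = 0.00818). The Gpnmb call was lost without T5, at -1.15 (adjusted p = 0.167). The Axl and Lpl calls each held in 9 of 11 alternatives, with adjusted p by limma of up to 0.105 and 0.24. The Cd9 call held in all 11. Without T3, 2 members were called on this scale, and 16676 of all genes against 17324.

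Between PDGFRA+ and GAL1+ cells the same subtraction left little. By limma, Cd9 was higher in PDGFRA+ cells by 1.44 (adjusted p = 0.0192), the only 1 of 10 members called, where 67.3% of all genes were called, all of them higher. The other members lay between -0.09 for Cst7 and 0.77 for Gpnmb, with intervals of about 1 log2 unit on each side, for example -1.03 to 1.17 for Trem2. The 6 members that were lower as plain levels were at -0.09 to 0.35 here. Without T3 or T5 no member was called on this scale, and without T4 2 were. Over all genes, 12234 were called with all tumors, 2131 without T3, 5322 without T5 and 15483 without T4.

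**Figure D4:**
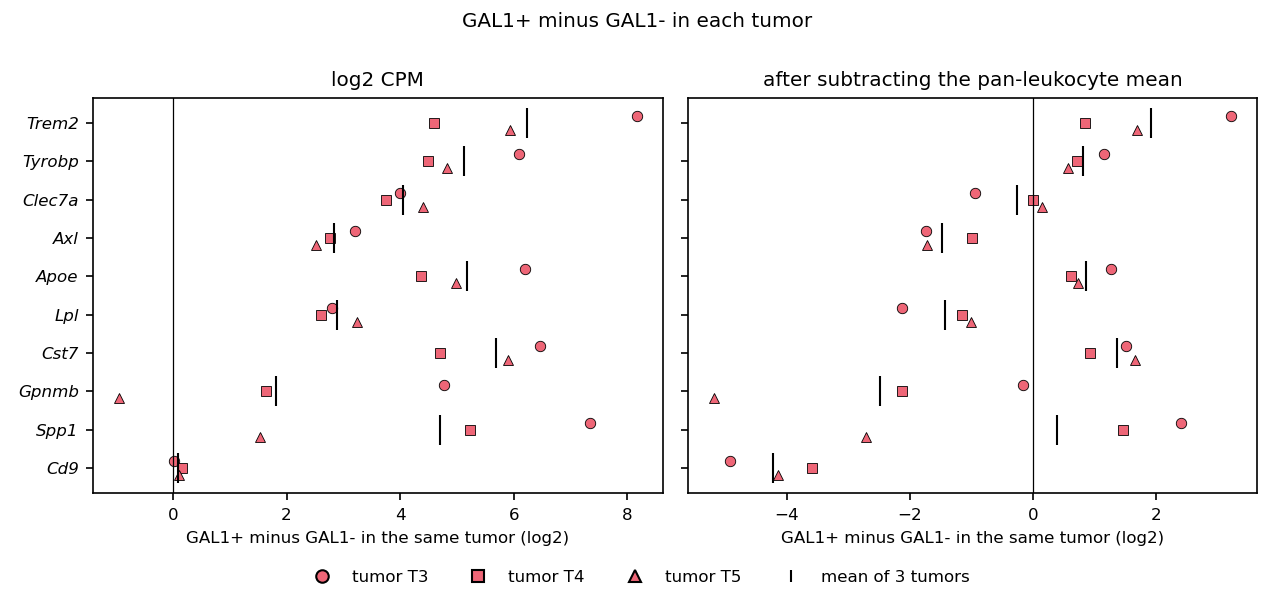
GAL1+ minus GAL1- difference (log2) of each gene in each tumor, as plain log2 CPM on the left and after subtraction of the pan-leukocyte mean on the right, with the mean of 3 tumors as a bar. After subtraction, Trem2, Cst7, Apoe and Tyrobp remain above 0 in all 3 tumors, Axl, Lpl, Gpnmb and Cd9 are below 0 in all 3, and Spp1 changes sign in T5 (-2.71).

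The genes that act with the members were read from 5 lists. Of the TREM2 adaptors and signalling genes, 15 of 16 were called higher in GAL1+ than in GAL1- cells and none lower (median 4.02). In this comparison 58.2% of all genes were called, 28.9% higher and 29.3% lower. The median was 4.30 over pan-leukocyte genes, all 14 of them called, and 5.67 over macrophage and monocyte genes. Whether any of the 5 lists moved apart from leukocyte genes was not tested. The highest was Ms4a4a (6.57), a tetraspan protein of macrophages whose locus is tied to soluble TREM2 levels, and the lowest was Vav3 (-0.44, not called), a guanine nucleotide exchange factor. The kinases Syk (4.50) and Btk (5.34), the phospholipase Plcg2 (4.24) and the sheddases Adam10 and Adam17 (1.67 each), named for their roles with their values known, were all called higher. In PDGFRA+ against GAL1+ cells 14 of the 16 were lower, in PDGFRA- against GAL1+ cells 7 were lower, and in PDGFRA+ against GAL1- cells 14 were higher. The shares of all genes called in these directions were 17.0%, 6.91% and 8.26%.

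Of the other genes of the disease-associated and lipid-associated program, 18 of 22 were higher in GAL1+ than in GAL1- cells and 1 was lower (median 4.17). Of all genes 28.9% were higher and 29.3% lower, and the pan-leukocyte median was 4.30. Atp6v0d2 (7.0), a subunit of the lysosomal proton pump, was the highest, and Serpine2 (-1.38), a secreted protease inhibitor also made by glia, was the one that was lower. In GAL1- cells of T3, T4 and T5 Atp6v0d2 was at -5.80, -2.77 and -3.31 log2 CPM. The floors of these libraries were -2.99, -2.77 and -2.82, so the size of its difference is uncertain. The cathepsins Ctsb (4.15), Ctsd (4.36), Ctsl (2.59) and Ctsz (4.90) and the integrin Itgax (4.60), named in the same way, were all called. The 3 that were not called were Fabp5 (0.14), Cadm1 (0.35) and Ank (-0.40).

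Of 18 measured lipid handling genes, 15 were higher and 2 lower in GAL1+ than in GAL1- cells (median 2.45), against 28.9% and 29.3% of all genes. The scavenger receptor Msr1 was the highest (7.14), and the lipoprotein receptor Vldlr the lowest (-2.35). Apoc1 (6.54) and Apoc2 (6.57), the apolipoproteins encoded beside Apoe, and the fatty acid receptor Cd36 (6.39), named in the same way, were also called higher. In GAL1- cells Apoc1 was below the floor in T3 and T5 (-3.34 and -3.31 log2 CPM). Apoc2 was at the floor in T3 (-2.99) and below it in T4 (-3.26). The sizes of the Apoc1 and Apoc2 differences are therefore uncertain. In PDGFRA+ against GAL1+ cells 11 of the 18 were lower and 2 higher, against 17.0% and 20.9% of all genes.

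Of 11 partners of AXL and osteopontin, 7 were higher and 2 lower in GAL1+ than in GAL1- cells (median 1.28), against 28.9% and 29.3% of all genes. Itgb5, an integrin subunit of a receptor for osteopontin, was the highest (5.16), and Tyro3, a receptor of the family of AXL, the lowest (-1.81), with Mertk, the remaining receptor of that family, at 3.94. The ligand genes Gas6 (1.34) and Pros1 (0.51) were called and not called, respectively. Of 7 tetraspanin partners of CD9, 3 were higher and none lower (median 0.34), from Ptgfrn (-0.09, not called) to Itga6 (2.92). Of all genes 58.2% were called in either direction and 28.9% were called higher, so 3 called genes of 7 do not set this list apart. None of the genes of the 5 lists was called in PDGFRA+ over PDGFRA- cells, where 0.0% of all genes were called.

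**Figure D5:**
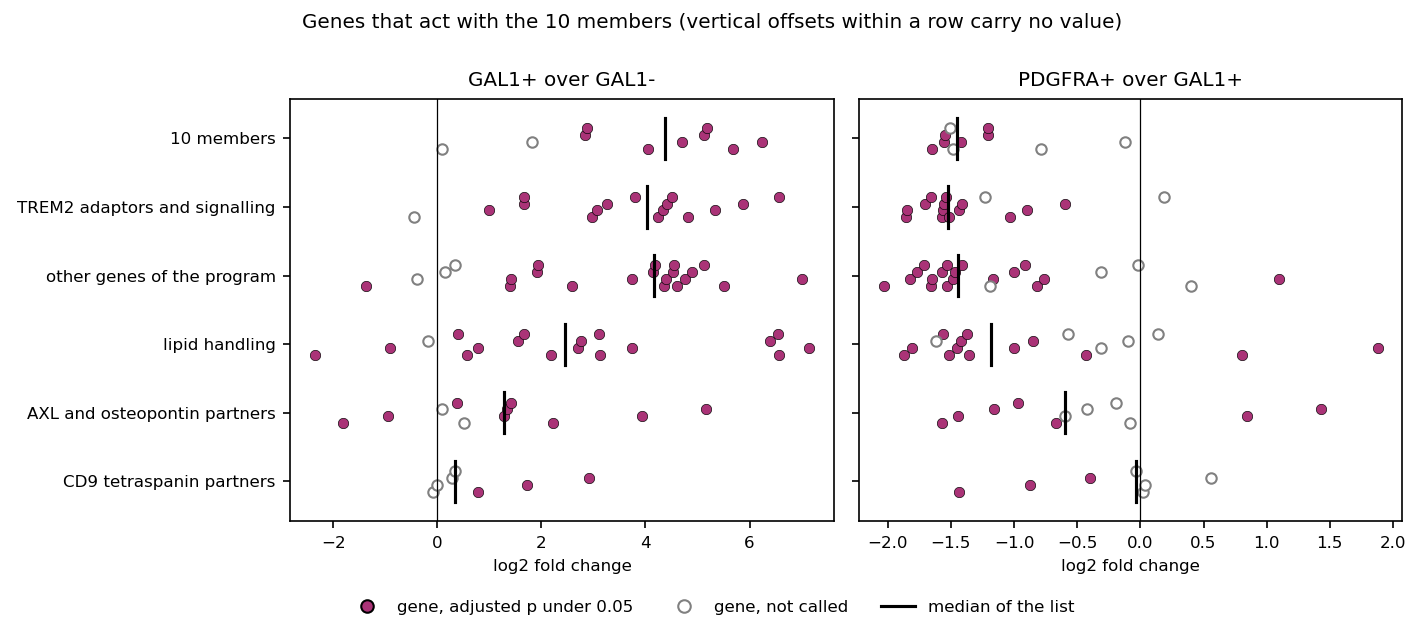
Log2 fold change of every measured gene of the 10 members and of 5 lists of genes that act with them, in GAL1+ over GAL1- and PDGFRA+ over GAL1+ cells, filled where called, with the median of each list as a bar. In GAL1+ over GAL1- cells the medians are 4.38 for the members, 4.02 for TREM2 signalling, 4.17 for other program genes, 2.45 for lipid handling, 1.28 for AXL and osteopontin partners and 0.34 for CD9 partners.

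By pattern over the 12 libraries, the genes most like each member, from Pearson's r across all other genes, differed by member. Tyrobp was most like Cyba (0.999), Ctsz and Laptm5, and Apoe like Itgb5 (0.999), Csf1r and C1qa. Trem2 was most like Itgb5 (0.991), Hpgds and Abcc3, and Cst7 like Ctse (0.989), Cd300lb and Npnt. Clec7a was most like H2-Ea (0.995), Havcr2 and Fgr, and Axl like Ehbp1l1 (0.996), Rassf3 and Tep1. Lpl (Ethe1, 0.977, then Tmed9 and Snx2), Spp1 (Batf, 0.958, then Pira2 and Gpr31b), Cd9 (Uqcrb, 0.941, then Ranbp1 and Ap2m1-ps) and Gpnmb (Steap4, 0.921, then Nupr1 and Cyp2d22) had weaker closest matches. With 12 libraries in 4 populations, high r values are common and are given as a description.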

How the data were processed

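RNA of sorted EGFR+ cells was made into 12 libraries with a stranded total RNA kit from low input. Per the labels and the study's methods, the authors trimmed reads with fastp, aligned them with STAR to mm39, counted exon reads with featureCounts (multi-mapping reads as fractions), kept genes with CPM over 1 in at least 3 samples, and normalized with TMM and voom. The deposited table holds log2 CPM, with an offset of 0.5 on each count. Taking the lowest level of a library as 0 reads gave the reads behind each level. Between 41.3% and 59.2% came out whole (tolerance 0.01), so no count test was run. The floor is 3 reads, for counting error only.

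All 12 libraries were fitted with limma 3.58.1 in R 4.3.3, with a term per population, the tumor as a block and a mean-variance trend, two-sided, with Benjamini-Hochberg adjustment over 18180 genes. The block follows the tumor numbers of the labels, since the 4 populations of a number are sorted from 1 tumor. Over 18 pairs of libraries of 1 tumor, deviations from population means correlated at 0.140 to 0.662. Whether the 3 tumors are 3 animals is not stated, and p values measure the spread between these samples. The fit was tested on simulated data in which 200 of 18180 genes were changed in GAL1+ cells. In GAL1+ over GAL1- cells it found 45.8% of 2-fold and 77% of 4-fold changes. A member that was not called can therefore still differ. Far more genes were called in the real comparison than were changed in the simulation. Intervals are 95% intervals of the fit. The members, gene lists and motifs were chosen with earlier results of these data known. Genes beyond the members are the highest and lowest of each pathway list in GAL1+ over GAL1- cells, any called in PDGFRA+ over PDGFRA- cells, the 3 genes most like each member, and a few named for their roles. Gpihbp1 of the lipid handling list and 5 marker genes (Ly6g, Camp, Retnlg, Ncr1 and Gjb6) were not in the table. Some items of the design and of the lists are not reported here. Figures were drawn with matplotlib 3.10.9. Alternatives were no block, no trend, quantile normalization, median centring, log2(CPM + 1), a filter on log2 CPM over 1 in 3 libraries, voom weights, other subtracted lists, and leaving out each tumor or the PDGFRA- library of T5. Leaving out the GAL1- library of T5 was added after seeing the data.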

Additional observations from a re-analysis of the deposited data

How the results depend on the processing

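In GAL1+ over GAL1- cells, 8 members were called under every alternative of scaling, filter, trend and weighting, and 8 to 9 when a tumor or library was left out. In PDGFRA+ over PDGFRA- cells 0 were called throughout. The other counts of members called depended on the block and the tumors. Without the tumor block as the replicate block, the count in PDGFRA+ over GAL1+ cells fell from 6 to 0, in PDGFRA- over GAL1+ cells from 3 to 0, in PDGFRA+ over GAL1- cells from 7 to 4, and relative to pan-leukocyte genes in PDGFRA+ over GAL1+ cells from 1 to 0. The block changed no other count of members by more than 1.5 times. Over all genes, calls with and without the block were 10578 and 8392 in GAL1+ over GAL1-, 6900 and 3154 in PDGFRA+ over GAL1+, 3652 and 725 in PDGFRA- over GAL1+, and 1504 and 612 in PDGFRA+ over GAL1- cells. Without the trend, 2 members were called in PDGFRA+ over GAL1+ cells and 2 in PDGFRA- over GAL1+ cells. Quantile normalization gave 4 and 2 in these comparisons, and median centring gave 5 in PDGFRA- over GAL1+ cells. Relative to the macrophage and monocyte list, 2 were called in PDGFRA+ over GAL1+ cells. Leaving out tumors or libraries gave 0 to 7 in PDGFRA+ over GAL1+, 0 to 6 in PDGFRA- over GAL1+, 0 to 7 in PDGFRA+ over GAL1-, 2 to 8 in GAL1+ over GAL1- relative to pan-leukocyte genes, and 0 to 2 in PDGFRA+ over GAL1+ on that scale. Leaving out tumors or libraries also left fewer samples, and the causes of these changes were not tested.

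Some signs turned, all of them for differences that were not called with all libraries and the stated settings. With quantile normalization Cd9 was at -0.18 in GAL1+ over GAL1- and 0.10 in PDGFRA+ over GAL1+ cells, and in PDGFRA+ over PDGFRA- cells Tyrobp was at 0.0211 and Spp1 at 0.000536. With libraries left out, PDGFRA+ over PDGFRA- differences ran from -0.76 to 0.60 for Trem2, -0.82 to 0.43 for Tyrobp, -0.42 to 0.0235 for Axl, -0.63 to 0.44 for Apoe, -0.55 to 0.70 for Lpl, -0.29 to 1.17 for Cst7, -0.14 to 0.65 for Gpnmb and -0.73 to 0.25 for Spp1, and Cd9 in PDGFRA+ over GAL1- cells from -0.0699 to 0.0102. Relative to leukocyte genes in GAL1+ over GAL1- cells, Clec7a ran from -0.48 to 0.0746 and Spp1 from -0.62 to 1.94, and with the macrophage and monocyte list Tyrobp was at -0.38, Apoe at -0.33 and Spp1 at -0.81. Relative values in PDGFRA+ over GAL1+ cells were near 0 and ran from -0.10 to 0.32 for Trem2, -0.13 to 0.16 for Tyrobp, -0.0826 to 0.0612 for Clec7a and -0.23 to 0.26 for Spp1 with libraries left out. With the microglia list Trem2 was at -0.0307, Clec7a at -0.0908 and Spp1 at -0.0495, with the macrophage and monocyte list Tyrobp was at 0.30 and Cst7 at 0.21, and on log2(CPM + 1) Clec7a was at -0.0046. Low counts limit the Trem2 and Cst7 values of the GAL1- library of T3, which rest on 10 and 9 reads. That library was the deepest of all, with 24117541 recovered reads. Low counts also limit the differences of Atp6v0d2, Apoc1 and Apoc2 from GAL1- cells, where these genes were at or below the floor in some or all libraries.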

Other observations

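Between PDGFRA+ and PDGFRA- cells of the same tumor, members were also compared after the pan-leukocyte mean was subtracted. Cst7, Lpl, Apoe and Spp1 were above 0 in all 3 tumors, and the other members were not. How many of all genes keep 1 sign on this scale was not counted, so this does not set these members apart. For Cst7 the values in T3, T4 and T5 were 0.18, 1.24 and 1.23, for Lpl 0.63, 0.60 and 0.26, for Apoe 0.12, 0.39 and 0.61, and for Spp1 0.08, 0.17 and 0.44. Trem2 (-0.007, 0.83 and 0.48) and Tyrobp (-0.03, 0.57 and 0.37) were just below 0 in T3. Clec7a, Axl, Gpnmb and Cd9 also changed sign between tumors. These were noticed in the data and were not tested. On the same scale Gpnmb was at 4.89 in the GAL1- library of T5, against 0.68 and 2.21 in those of T3 and T4, and at 1.80 in the PDGFRA+ library of T5, against 0.00 in the PDGFRA- library and -0.30 in the GAL1+ library of that tumor.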
